A study of Homo sapiens with 6 samples.

Results

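Interferon-stimulated genes are the genes that cells switch on after interferons bind their receptors, and 50 of them were followed here in the colorectal adenocarcinoma line HT29 under shortage of an amino acid. The members were taken by gene symbol, through the GENCODE 44 annotation, from the 60676 genes of the RNA-seq tables, and all 50 were found. HT29 cells of wild-type genotype were cultured for 48 h in control medium (untreated), without histidine (Hdepl) or without tryptophan (Wdepl), and 2 libraries per condition gave 6 in all. RPMI without histidine served for Hdepl and DMEM F-12 without tryptophan for Wdepl, both with dialyzed serum, and which base the untreated RNA-seq cultures had is not given in the sources used here. A base-medium effect and a depletion effect cannot be told apart in any comparison below. All groups come from a single cancer line, and no source used here says that replicates were separate cultures. The p-values thus measure the spread between these libraries, which may be technical. The tests pool that spread over genes of similar level, so a p-value rests only in part on the libraries of the gene itself.

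In the textbook pathway, nucleic acids of viral or damaged-cell origin are sensed by proteins such as RIG-I, MDA5 and cGAS, which leads to transcription and secretion of type I and type III interferons. Bound receptors activate the kinases JAK1 and TYK2, and these phosphorylate STAT factors such as STAT2, which joins IRF9 at the interferon-stimulated response element (ISRE) in promoters. The products degrade or bind foreign RNA, block entry or release of virus, modify proteins with ISG15, and restrain the pathway itself. Many of these genes can also be transcribed by IRF1, IRF3 or IRF7 without secreted interferon, and intestinal epithelial cells express part of the set at rest.

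Reads were recovered from the deposited values for all libraries and numbered 46390819 to 64388876 per library. Of 10 colon epithelial markers, none was at 0 in the untreated and Wdepl libraries, whereas CDX1 was at 0 in both Hdepl libraries. The summed level of these markers was 2367 to 2425 RPKM (reads scaled to exon length and library size) in the untreated, 2456 to 2576 in the Hdepl and 3233 to 3273 in the Wdepl libraries. Single markers moved in both directions, with 5 of the 10 called higher and 5 lower in Hdepl, and 5 higher and 2 lower in Wdepl, among them KRT20 (log2 fold changes 1.74 and 2.38) and LGALS4 (-1.57 in Hdepl). Their log2 fold changes ran from -4.40 to 1.74 in Hdepl and from -2.13 to 2.38 in Wdepl. Of 16 leukocyte and mast cell markers, 7 or 8 were at 0 in each library, including CD3D, MS4A1, KIT, TPSAB1, CPA3 and FCER1A in every one, and PTPRC had at most 2 reads. Their summed level, 743 to 771 RPKM in the untreated, 125 to 144 in the Hdepl and 409 to 411 in the Wdepl libraries, came mostly from LYZ, which secretory epithelial cells express as well. Of 5 tested in Hdepl, 2 were higher, CSF1R (2.45) and ITGAM (0.50), and 3 lower, down to -2.31 (log2 fold changes). Of 4 tested in Wdepl, 1 was higher, CD14 (1.73), and 2 lower, down to -3.18. The part of these marker shifts in the results below was not tested. In bulk RNA, fewer cells with a transcript and less transcript per cell cannot be told apart.

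Most promoter windows of the members held an ISRE match. In the textbook pathway such genes are transcribed through the ISRE, so choosing them by that name favours a match. The ISRE was searched on both strands as GAAANNGAAA, and the gamma-activated site (GAS), an element of the response to interferon-gamma, as TTCNNNGAA, in windows from 250 bases before to 50 bases after the start (RefSeq, GRCh38.p14). Windows were found for 41 of the 50 members, 55 windows in all. An ISRE match lay in 36 of these 55 windows (65.5%), against 1255 of 35116 windows of all genes (3.57%), and 31 of the 41 members had at least 1 match (75.6%, all genes 4.38%). Among 36 further interferon-induced genes, which are no members, 11 of 33 windows (33.3%) and 11 of 26 genes (42.3%) held a match. GAS matches lay in 14 of the 55 windows (25.5%) against 7.66% of all windows, and in 6 member windows a GAS and an ISRE match overlapped. A match is a description of the sequence and not of binding.

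Promoters are shown here for the 3 members with an ISRE match whose smaller rise of both depletions was largest. That of HERC5 is shown for the largest fall of any member in either depletion, its fall in Wdepl. The 250 bases before the start are given 5′ to 3′ on the strand of the gene, with ISRE matches on either strand in capitals (adjoining matches merge), at chr1:78620198-78620447 (+) for IFI44L, chr1:89065209-89065458 (-) for GBP1, chr2:162318685-162318934 (-) for IFIH1 and chr4:88456869-88457118 (+) for HERC5.
IFI44L: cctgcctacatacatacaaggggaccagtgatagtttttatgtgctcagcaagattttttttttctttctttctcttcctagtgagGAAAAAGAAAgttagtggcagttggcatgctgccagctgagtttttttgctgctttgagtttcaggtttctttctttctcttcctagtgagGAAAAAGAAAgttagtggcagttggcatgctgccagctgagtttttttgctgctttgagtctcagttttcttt
GBP1: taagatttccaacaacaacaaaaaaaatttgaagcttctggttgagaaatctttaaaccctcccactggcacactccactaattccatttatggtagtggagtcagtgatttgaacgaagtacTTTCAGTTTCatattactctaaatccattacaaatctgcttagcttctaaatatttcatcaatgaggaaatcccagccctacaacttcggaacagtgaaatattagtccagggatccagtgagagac
IFIH1: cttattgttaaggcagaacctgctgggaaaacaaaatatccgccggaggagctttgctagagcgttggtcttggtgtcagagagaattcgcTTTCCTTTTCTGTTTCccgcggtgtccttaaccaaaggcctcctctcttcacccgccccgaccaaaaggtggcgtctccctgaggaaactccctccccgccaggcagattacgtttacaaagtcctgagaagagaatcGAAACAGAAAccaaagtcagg
HERC5: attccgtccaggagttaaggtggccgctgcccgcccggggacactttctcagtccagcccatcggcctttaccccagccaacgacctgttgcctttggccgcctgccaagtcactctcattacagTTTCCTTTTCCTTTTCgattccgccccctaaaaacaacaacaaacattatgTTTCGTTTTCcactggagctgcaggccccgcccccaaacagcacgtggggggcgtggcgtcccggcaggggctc
IFI44L carried 2 identical matches at positions -164 and -73 from the start, inside an exact repeat of 85 bases that recurs 91 bases further on. GBP1 had a single match at -127. IFIH1 and HERC5 had 3 each, the first pair overlapping, at -159, -153 and -21 and at -125, -119 and -74. Yet HERC5 fell and IFIH1 rose in both depletions, as given below. The median log2 fold change of the 30 tested members with a match was 0.87 in Hdepl and 0.80 in Wdepl, and that of the 10 without was 1.0 and 1.23, which was not tested.

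Most members were higher in both depletions, but members and lists were chosen with earlier results of these data known. Shares of members and of all genes are therefore set side by side as a description only. Within each deposited table, depleted and untreated libraries were compared by limma on a log2 scale, log2(normalized count + 1), with p-values adjusted over all genes tested and a threshold of 0.05. Of the 50 members, 49 passed the filter on low values, a mean of 10 normalized counts, and only RTP4, a chaperone of receptor transport with 1 to 9 reads per library, did not. After histidine depletion 34 of 49 were higher (69.4%), while 39.1% of all 18288 tested genes were called higher, and 7 were lower (14.3%), against 38.2% of all genes. At least 2-fold higher were 20 members (40.8%, background 16.4%) and at least 2-fold lower 2, LGALS3BP and HERC5 (4.08%, background 16.1%). The median log2 fold change was 0.61, and that of all tested genes 0.010.

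After tryptophan depletion 38 of 49 members were higher (77.6%), against 36.1% of 17960 tested genes, and 7 were lower (14.3%), against 34.8%. By at least 2-fold, 22 were higher (44.9%, background 10.0%) and 3 lower, HERC5, IFITM2 and IFITM3 (6.12%, background 10.4%). The median log2 fold change was 0.91, against 0.013 for all genes. Both comparisons use the same untreated libraries and are not independent of each other. Between them, 31 members were called higher in both, 4 lower in both (IFITM2, IFITM3, HERC5 and LGALS3BP) and 4 in opposite directions (63.3%, 8.16% and 8.16%). Of the 17470 genes tested in both, 19.6% were called higher in both, 21.5% lower in both and 18.0% in opposite directions.

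Between the depletions, members were called about as often as other genes. In the direct comparison, for which the reads of all 6 libraries were scaled together, 21 members were higher after histidine than after tryptophan depletion (42.9%, background 38.7%) and 20 were lower (40.8%, background 38.0%). At least 2-fold differences were found for 6 in each direction (12.2% each), below the background of 16.0% higher and 15.8% lower. The median log2 difference of the members was -0.23, and that of all tested genes 0.011. Of the 31 members raised in both, 13 stood higher after histidine depletion, 12 higher after tryptophan depletion and 6 had no call between them (41.9%, 38.7% and 19.4%), and for the 3432 genes raised in both these shares were 50.9%, 23.2% and 25.9%. The difference between these shares was not tested. Of the 13, the direct calls of BST2, IFIH1, SP100, SP110 and TRIM22 were lost on leaving out 1 library. No direct call of the 12 was lost in this way.

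**Figure D1:**
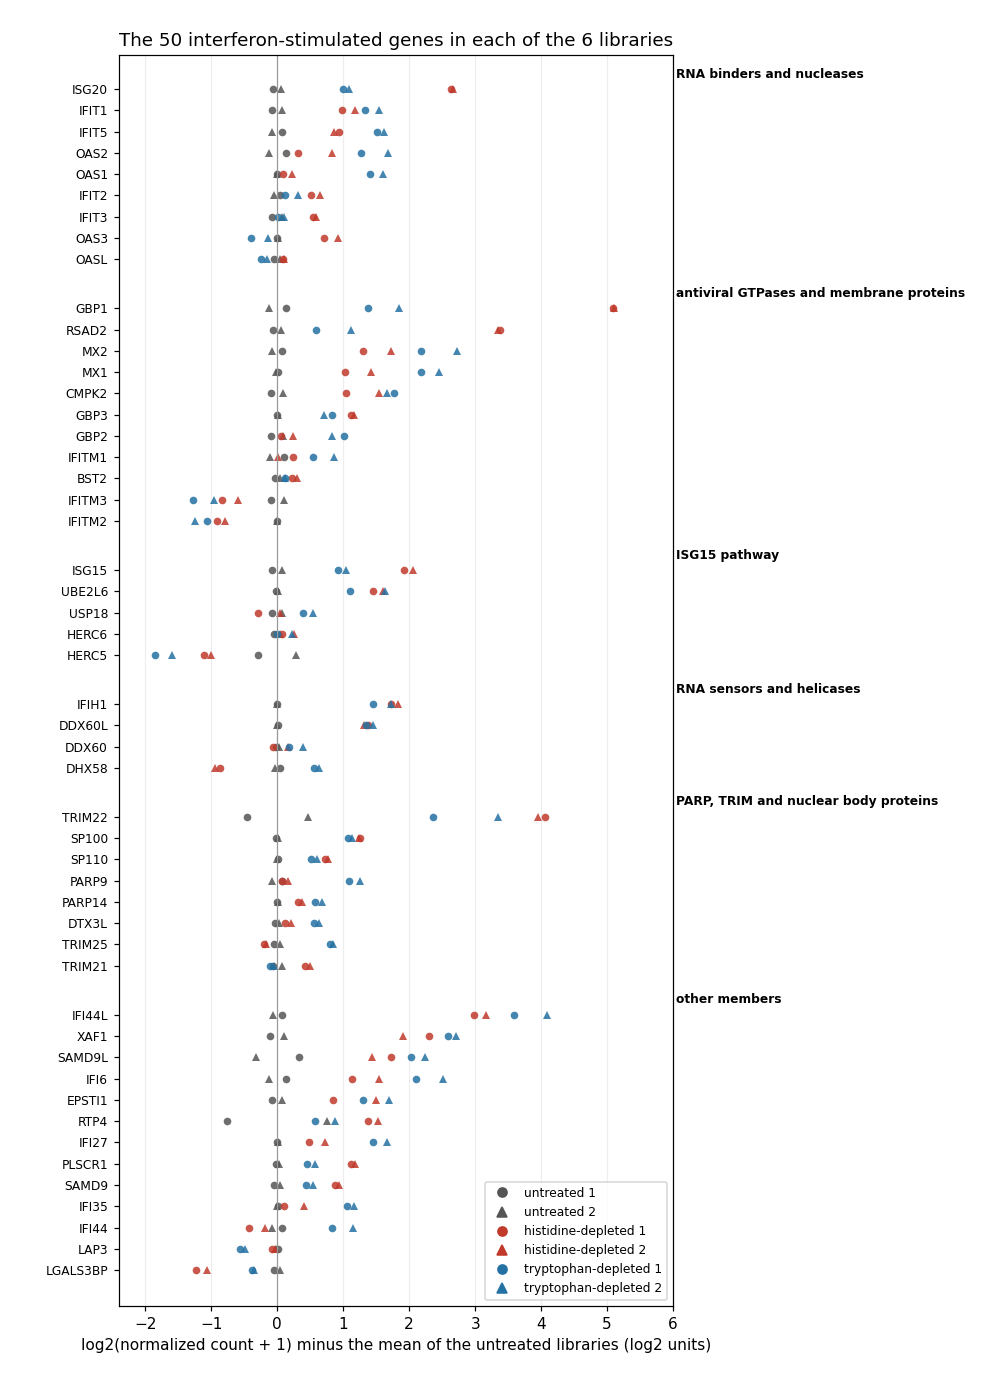
Every member in every library, grouped by role. The x axis is log2(normalized count + 1) of a library minus the mean of the untreated libraries, with circles for replicate 1 and triangles for replicate 2. Red Hdepl and blue Wdepl points lie mostly right of the grey untreated ones, with GBP1, RSAD2 and ISG20 far right in Hdepl alone, and IFITM2, IFITM3, HERC5 and LGALS3BP left of zero in both depletions.

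Library values below are normalized counts after the joint scaling, which moves a log2 fold change by less than 0.01 from the deposited tables, and log2 fold changes are those of the tests with their standard error (SE), while a linear fold is the ratio of the group means. The SE is pooled over genes of similar level. For members whose replicates differ, such as IFI6 and MX2, it is smaller than their own libraries would give. Where a call is given without 1 library, the other libraries supply the spread, so that a lost call can reflect fewer libraries as well as a smaller change. Levels are compared between genes only per kilobase of exon. On that scale LGALS3BP was the most abundant member in untreated cells (171 and 177 RPKM), followed by BST2 (62.7 and 64.3), and then ISG15 (24.0 and 25.8) and LAP3 (23.9 and 22.6), whose values did not differ beyond their spread. TRIM22 had the lowest values, 0.0017 and 0.0045 RPKM. These rest on 1 and 3 reads, and XAF1 had 3 and 4, so their order is uncertain. After histidine depletion the order at the top changed: ISG15 led with 83.5 and 91.0 RPKM, while LGALS3BP (65.3 and 72.9) and BST2 (66.0 and 68.6) overlapped.

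Of the 9 members that bind, tag or cut RNA, 8 were higher after histidine depletion, all but OASL, and none was lower (all genes 39.1% and 38.2%). After tryptophan depletion 6 were higher, and OAS3 and OASL were lower (all genes 36.1% and 34.8%), and these all-gene shares stand beside the counts of the other role groups too. ISG20, an exonuclease of single-stranded RNA, had 639 and 698 normalized counts in untreated, 4154 and 4230 in Hdepl and 1335 and 1423 in Wdepl libraries. The groups were well apart, with a log2 fold change of 2.66 (SE 0.06, adjusted p = 1.4e-21) in Hdepl, 1.04 (SE 0.07, adjusted p = 9.1e-32) in Wdepl and 1.60 (SE 0.06, adjusted p = 3.3e-14) between them. The limma p-value was smaller in Wdepl although the change was smaller and the SE similar. Each comparison has its own fit and pooled spread, so p-values here and below cannot be compared between comparisons.

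The 3 OAS genes lie side by side on chromosome 12 (112905856 to 113011723) and encode enzymes that make short oligoadenylates when they meet double-stranded RNA. OAS1 and OAS2 differed from OAS3. OAS1 had 1074 and 1075 normalized counts in untreated, 1147 and 1255 in Hdepl and 2856 and 3270 in Wdepl libraries. Its rise was thus almost restricted to Wdepl (log2 fold change 1.50, SE 0.06, adjusted p = 3.8e-55), and that in Hdepl was 0.17 (SE 0.07, adjusted p = 0.024), a call lost without untreated replicate 1 (0.16, adjusted p = 0.051) or Hdepl replicate 2 (0.11, adjusted p = 0.31). OAS3 went the other way, with 3858 and 3883 in untreated, 6306 and 7352 in Hdepl and 2953 and 3510 in Wdepl libraries. Its Hdepl libraries were the highest and its Wdepl libraries the lowest, with log2 fold changes of 0.82 (SE 0.06, adjusted p = 3.8e-12) and -0.27 (SE 0.05, adjusted p = 8.2e-07), although the fall was -0.14 without Wdepl replicate 1 (adjusted p = 0.11). OAS2 resembled OAS1, at 0.58 in Hdepl and 1.47 in Wdepl. The direct difference was -1.35 for OAS1, -0.91 for OAS2 and 1.08 for OAS3, so that these neighbours spanned 2.43 log2 units.

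The IFIT genes, whose products bind the 5′ ends of foreign RNA, form another cluster, on chromosome 10 (89283694 to 89421605), and split into pairs. IFIT2 and IFIT3 stood higher after histidine depletion (log2 differences of 0.36 and 0.51), and IFIT1 and IFIT5 after tryptophan depletion (-0.36 and -0.66). IFIT5 had 400 and 359 normalized counts in untreated, 724 and 692 in Hdepl and 1082 and 1162 in Wdepl libraries, the 3 groups in steps without overlap (log2 fold changes 0.91 and 1.55, adjusted p = 6.5e-10 and 6.8e-43). IFIT3 rose only in Hdepl by the test (0.57, against 0.05 in Wdepl with adjusted p = 0.58). Of the exonic bases of IFIT2, 12.1% are shared with another gene on the same strand, and how such reads were counted is not given in the sources used here.

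OASL, a member of the OAS family without the synthetase activity, changed little: its log2 fold change was 0.10 in Hdepl (adjusted p = 0.15) and -0.21 in Wdepl (adjusted p = 0.0011), the latter lost without Wdepl replicate 1 (-0.16, adjusted p = 0.094).

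The antiviral GTPases and membrane proteins held the largest change of all members. GBP1, a guanylate-binding GTPase that coats intracellular pathogens, had 75.4 and 62.7 normalized counts in untreated, 2371 and 2391 in Hdepl and 179 and 250 in Wdepl libraries. Both Hdepl libraries lay far above the rest, 34.7-fold over untreated cells (log2 fold change 5.10, SE 0.10, adjusted p = 5.3e-23), while Wdepl reached 3.09-fold (1.60, SE 0.16, adjusted p = 9.4e-18). The difference between the depletions was 3.49 (SE 0.13, adjusted p = 8.2e-14). Its neighbour GBP3 on chromosome 1 also stood higher in Hdepl, with smaller changes of 1.15 and 0.76 and a direct difference of 0.37 (adjusted p = 1.2e-05). GBP2 beside them rose by 0.91 in Wdepl, with 0.15 in Hdepl (adjusted p = 0.13) and a direct difference of -0.78.

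RSAD2, or viperin, which converts CTP into a chain terminator of viral RNA synthesis, followed the pattern of GBP1, with 56.8 and 61.7 normalized counts in untreated, 622 and 614 in Hdepl and 89.6 and 130 in Wdepl libraries. It was 10.5-fold higher in Hdepl (log2 fold change 3.37, SE 0.12, adjusted p = 9.1e-18) and 1.85-fold higher in Wdepl (0.85, SE 0.19, adjusted p = 3.1e-05), with a difference of 2.50 (SE 0.15, adjusted p = 8.9e-11). CMPK2, a nucleotide kinase encoded beside it on the other strand, did not share that preference, rising by 1.30 and 1.71 with no call between the depletions (adjusted p = 0.084).

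MX1 and MX2, dynamin-like GTPases that trap viral nucleocapsids, favoured tryptophan depletion. MX1 had 239 and 236 normalized counts in untreated, 485 and 637 in Hdepl and 1077 and 1303 in Wdepl libraries. Its groups did not overlap, with log2 fold changes of 1.23 (SE 0.11, adjusted p = 2.4e-10) and 2.31 (SE 0.08, adjusted p = 2.8e-57) and a difference of -1.09 (SE 0.11, adjusted p = 6.9e-08). MX2 had 89.6 and 80.6, 211 and 282, and 386 and 569 normalized counts in the same order of groups, and rose by 1.52 and 2.44. The changes of these neighbours lay within 0.29 of each other in Hdepl and 0.14 in Wdepl, against 4.95 and 0.84 among the 3 GBP genes.

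The IFITM proteins, which hinder fusion of viruses in endosomes, held no member called higher than in untreated cells. IFITM2 had 1603 and 1601 normalized counts in untreated, 848 and 925 in Hdepl and 765 and 678 in Wdepl libraries. Both depletions lay below the untreated libraries (log2 fold changes -0.85 and -1.16, SE 0.06 each, adjusted p = 1.5e-11 and 1.1e-37). IFITM3 fell likewise, by 0.71 and 1.12, and IFITM1 had only 13.9 to 28.4 normalized counts per library and no call. Between the depletions, IFITM2 and IFITM3 stood higher in Hdepl (0.30 and 0.40, adjusted p = 0.00063 and 0.0017). The direct call of IFITM3 was lost without Wdepl replicate 1 (0.24). The 3 IFITM genes are close paralogs, 16.3% of the exonic bases of IFITM3 are shared with genes on the opposite strand and 21.1% of those of IFITM1 with one on the same strand, and how reads that fit several genes were counted is not given in the sources used here. BST2, or tetherin, which holds budding virus at the cell surface, was abundant throughout and rose by 0.27 in Hdepl and 0.12 in Wdepl. The latter call was lost on leaving out any of untreated replicate 1 and both Wdepl replicates.

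**Figure D2:**
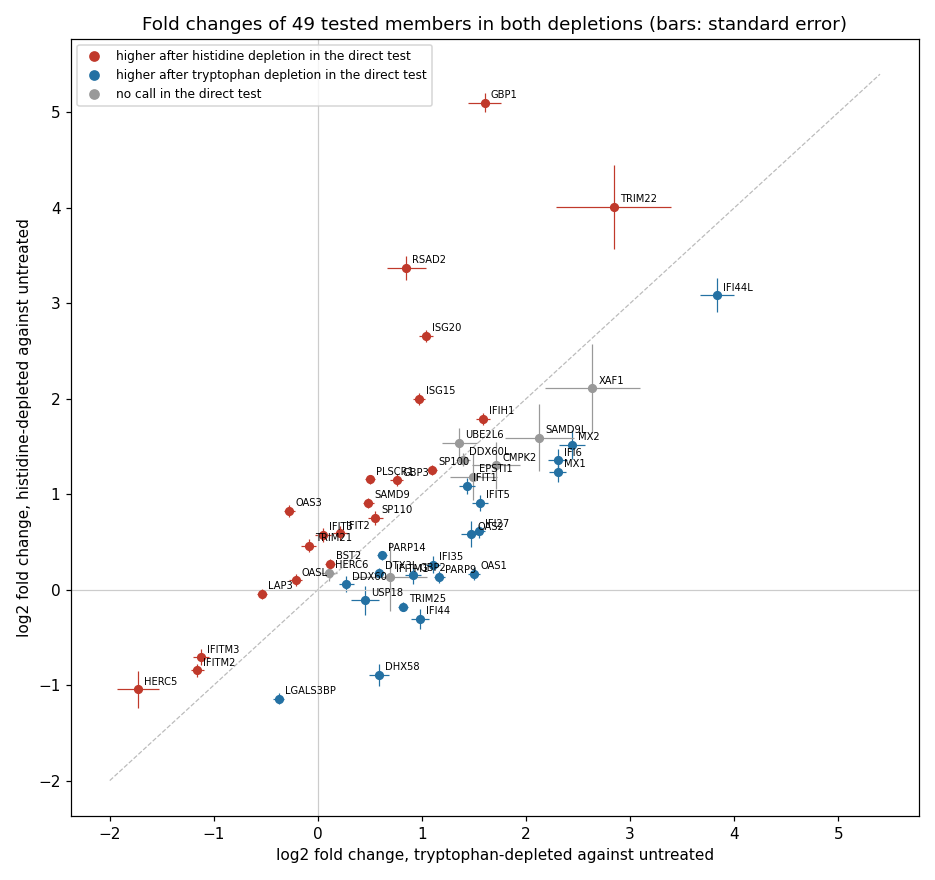
Log2 fold changes of the 49 tested members against untreated cells, tryptophan depletion on the x axis and histidine depletion on the y axis, with standard errors as bars and the diagonal of equal change dashed. Colours give the direct test between the depletions. GBP1, RSAD2, ISG20 and ISG15 lie above the diagonal, IFI44L, MX1, MX2, IFI6 and OAS1 below it, and DHX58, IFI44 and TRIM25 lie to the right of zero but beneath it.

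ISG15 is a small protein that is attached to other proteins like ubiquitin, and its pathway moved apart within itself. ISG15 had 1056 and 1170 normalized counts in untreated, 4210 and 4619 in Hdepl and 2099 and 2299 in Wdepl libraries. The 3 groups stood in clear steps, with log2 fold changes of 2.00 (SE 0.06, adjusted p = 3.8e-19) and 0.98 (SE 0.06, adjusted p = 2.1e-34) and a difference of 1.01 (SE 0.06, adjusted p = 6.6e-11). UBE2L6, the conjugating enzyme, had 62.3 and 63.7, 174 and 193, and 137 and 197 normalized counts, and rose by 1.54 and 1.36 with no call between the depletions. HERC5, the main ligase that attaches ISG15, fell instead. Its libraries had 106 and 158 normalized counts in untreated, 59.6 and 64.1 in Hdepl and 35.2 and 42.1 in Wdepl, all depleted libraries below both untreated ones (log2 fold changes -1.05, SE 0.19, adjusted p = 2.6e-05, and -1.73, SE 0.20, adjusted p = 5.0e-14).

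USP18, which removes ISG15 and also dampens the type I receptor, had 131 and 145 normalized counts in untreated, 113 and 142 in Hdepl and 180 and 201 in Wdepl libraries. Only Wdepl stood apart, at 0.46 (SE 0.14, adjusted p = 0.0017), and this call was lost without Wdepl replicate 2 (0.37, adjusted p = 0.056). HERC6, a relative of HERC5 encoded beside it on chromosome 4, had no call. Its log2 fold change was 0.17 in Hdepl (adjusted p = 0.058) and 0.11 in Wdepl (adjusted p = 0.21). With a replicate block it was called in Hdepl, and under quantile normalization in both depletions.

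All 4 RNA sensors and helicases were called higher in Wdepl (all genes 36.1%), whereas in Hdepl 2 were higher and DHX58 was lower (all genes 39.1% and 38.2%). IFIH1 encodes MDA5, a sensor of long double-stranded RNA, and had 579 and 578 normalized counts in untreated, 1908 and 2070 in Hdepl and 1592 and 1921 in Wdepl libraries. It rose to a like extent in both, by 1.79 (SE 0.07, adjusted p = 1.2e-17) and 1.59 (SE 0.07, adjusted p = 1.1e-49). The libraries of the 2 depletions overlapped, and the direct difference of 0.18 (adjusted p = 0.030) was lost without Hdepl replicate 2 (0.13, adjusted p = 0.20) or Wdepl replicate 1 (0.049, adjusted p = 0.58). DHX58, or LGP2, the related helicase that regulates MDA5 and RIG-I, had 291 and 276 in untreated, 154 and 148 in Hdepl and 416 and 439 in Wdepl libraries. It was lowest in Hdepl and highest in Wdepl, with log2 fold changes of -0.89 (SE 0.12, adjusted p = 2.7e-07) and 0.58 (SE 0.10, adjusted p = 2.6e-08) and a difference of -1.49 (SE 0.10, adjusted p = 2.3e-10).

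DDX60L rose by 1.36 and 1.40 with no call between the depletions, whereas its neighbour DDX60 had 670 and 691 normalized counts in untreated, 651 and 762 in Hdepl and 768 and 889 in Wdepl libraries. DDX60 was called in Wdepl alone (0.27, adjusted p = 0.00040), a call lost without Wdepl replicate 2 (0.16). Under quantile normalization it was called in Hdepl as well.

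Among the PARP, TRIM and nuclear body members, 6 of 8 were higher in Hdepl (all genes 39.1%), 7 in Wdepl (all genes 36.1%) and 1 was lower, TRIM25 in Hdepl. PARP9 and DTX3L, partners in a complex of ADP-ribosylation and ubiquitination, and PARP14 lie together on chromosome 3 (122527924 to 122730840), and all 3 stood higher after tryptophan than after histidine depletion. PARP9 had 1704 and 1531 normalized counts in untreated, 1706 and 1812 in Hdepl and 3431 and 3860 in Wdepl libraries. Its Wdepl libraries were about double the rest (log2 fold change 1.16, SE 0.05, adjusted p = 2.5e-45), with 0.13 in Hdepl (adjusted p = 0.058) and a difference of -1.05 (SE 0.06, adjusted p = 4.5e-11). The Hdepl change of PARP9 was called with a replicate block or a pseudocount of 8. For PARP14 the changes were 0.36 and 0.62, and for DTX3L 0.17 and 0.59, of which the former was lost without Hdepl replicate 2 (0.13, adjusted p = 0.17) and turned to -0.013 (adjusted p = 0.76) under quantile normalization.

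TRIM25, the ubiquitin ligase that activates RIG-I, had 10062 and 10651 normalized counts in untreated, 9002 and 9186 in Hdepl and 17942 and 18641 in Wdepl libraries. It rose by 0.81 in Wdepl (SE 0.05, adjusted p = 1.1e-34). In Hdepl it fell by 0.18 (SE 0.05, adjusted p = 0.0027), a call lost without either Hdepl replicate (-0.17, adjusted p = 0.095, without replicate 1 and -0.19, adjusted p = 0.056, without replicate 2), and the difference was -1.01 (SE 0.04, adjusted p = 2.6e-13). TRIM21, an intracellular antibody receptor, showed the reverse preference, with 806 and 882 in untreated, 1125 and 1185 in Hdepl and 781 and 812 in Wdepl libraries, that is, a call in Hdepl alone (0.46, adjusted p = 1.7e-06) and a direct difference of 0.54 (adjusted p = 6.4e-07).

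SP100 and SP110 are components of nuclear bodies encoded within 380 kb on chromosome 2. SP100 had 2108 and 2149 normalized counts in untreated, 5060 and 5032 in Hdepl and 4489 and 4674 in Wdepl libraries, and rose by 1.25 (SE 0.05, adjusted p = 8.6e-17) and 1.10 (SE 0.05, adjusted p = 5.7e-46). SP110 had 614 and 610, 1012 and 1039, and 873 and 933, and rose by 0.75 and 0.55, although 19.3% of its exonic bases are shared with genes on the other strand. TRIM22, which restricts transcription of several viruses, was close to silent in untreated cells with 1 and 3 reads, against 52 and 43 reads in Hdepl and 13 and 31 in Wdepl libraries. Its level per library size was 19.3 times higher in Hdepl (95% interval of counting error 7.29 to 72.2) and 9.86 times higher in Wdepl (3.59 to 37.8).

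**Figure D3:**
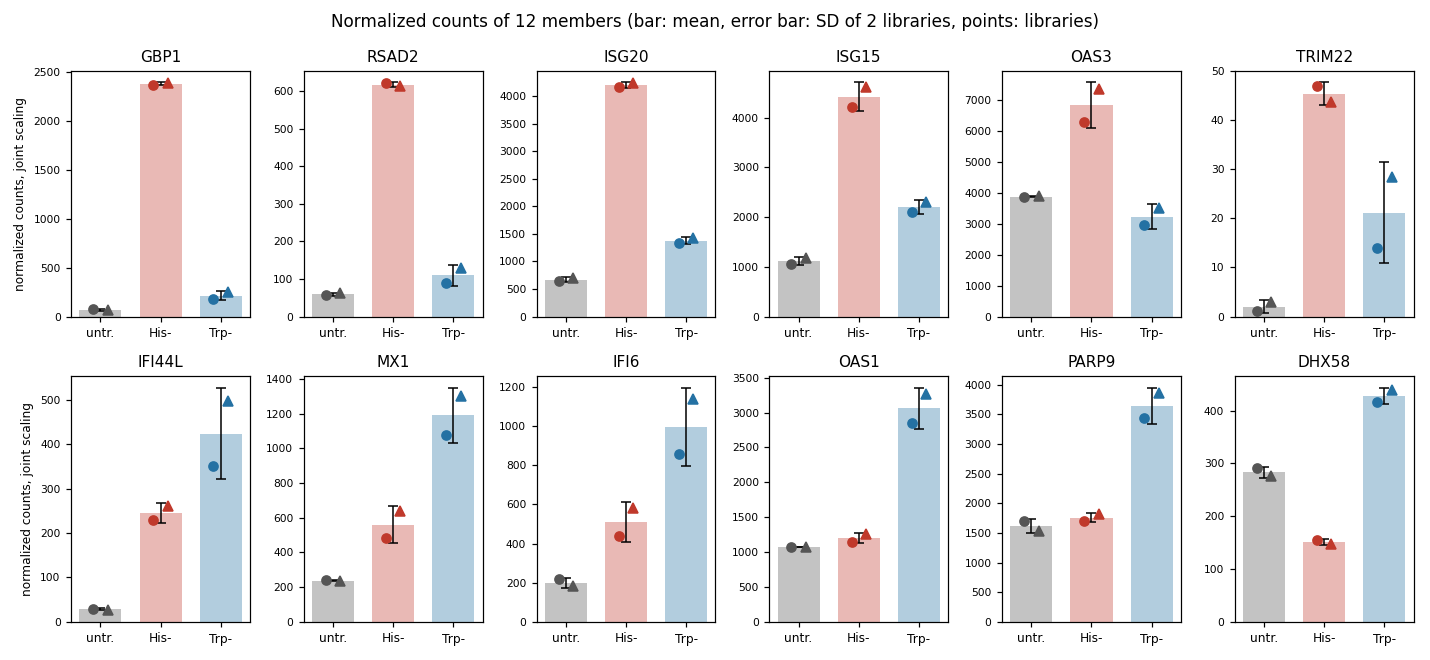
Normalized counts, jointly scaled, of 12 members in untreated, histidine-depleted (His-) and tryptophan-depleted (Trp-) libraries, each panel with its own linear axis from 0. Bars are means, error bars the SD of 2 libraries, and circles and triangles replicates 1 and 2. The upper row shows members highest in Hdepl, such as GBP1 at 2371 and 2391, and the lower row members highest in Wdepl, such as MX1 at 1077 and 1303.

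Of the other 13 members 12 were tested, and 9 were higher and 2 lower in Hdepl (all genes 39.1% and 38.2%), and 10 higher and 2 lower in Wdepl (all genes 36.1% and 34.8%). IFI44L, a feedback regulator of the response, had 29.5 and 26.9 normalized counts in untreated, 229 and 260 in Hdepl and 351 and 497 in Wdepl libraries. It showed the largest rise of all members in Wdepl, 15.0-fold (log2 fold change 3.84, SE 0.16, adjusted p = 2.4e-48), and 8.75-fold in Hdepl (3.08, SE 0.18, adjusted p = 6.7e-14). IFI44, its neighbour on chromosome 1, had 399 and 357 in untreated, 279 and 331 in Hdepl and 669 and 840 in Wdepl libraries. It rose by 0.98 in Wdepl (SE 0.08, adjusted p = 8.5e-22) and fell by 0.30 in Hdepl (SE 0.10, adjusted p = 0.011). The fall was lost without untreated replicate 1 (-0.23, adjusted p = 0.11) or Hdepl replicate 1 (-0.18, adjusted p = 0.19), while the difference of -1.30 (SE 0.11, adjusted p = 5.6e-09) was not.

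IFI6, a mitochondrial and endoplasmic reticulum protein that delays apoptosis, had 216 and 181 normalized counts in untreated, 437 and 581 in Hdepl and 855 and 1137 in Wdepl libraries, with log2 fold changes of 1.35 and 2.30 (SE 0.12 and 0.09). A long noncoding gene on the same strand shares 23.1% of its exonic bases. IFI27 (0.61 and 1.55) and IFI35 (0.26 and 1.10) also stood higher in Wdepl, and the Hdepl call of IFI35 was lost without Hdepl replicate 2 (0.11, adjusted p = 0.34). PLSCR1, a scramblase that restricts virus entry, preferred Hdepl, with 3771 and 3886 in untreated, 8312 and 8643 in Hdepl and 5223 and 5690 in Wdepl libraries (log2 fold changes 1.16 and 0.50, difference 0.64, adjusted p = 6.6e-10), as did SAMD9 (0.91 and 0.49).

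XAF1, SAMD9L and EPSTI1 were expressed at under 110 normalized counts in every library and rose in both depletions, with no call between them. Their log2 fold changes were 2.11 and 2.64, 1.59 and 2.13, and 1.18 and 1.49 in Hdepl and Wdepl. For XAF1, an antagonist of the apoptosis inhibitor XIAP, 38.3% of the exonic bases are shared with a gene on the opposite strand.

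LGALS3BP, a secreted glycoprotein, and LAP3, a leucine aminopeptidase, were among the members that fell. LGALS3BP had 29589 and 31653 normalized counts in untreated, 12997 and 14619 in Hdepl and 23476 and 23864 in Wdepl libraries. Both depletions were below the untreated libraries and Hdepl the lower (log2 fold changes -1.14, SE 0.06, adjusted p = 6.4e-15, and -0.38, SE 0.05, adjusted p = 3.8e-11). LAP3 had 4587 and 4471, 4291 and 4440, and 3058 and 3222, and fell in Wdepl only by the test (-0.54, SE 0.05, adjusted p = 5.5e-20, against -0.04 in Hdepl with adjusted p = 0.43), with a direct difference of 0.48 (adjusted p = 1.8e-08).

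Replicates within a depletion differed in a way that ran through the members. In Wdepl, 44 of 49 members were higher in replicate 2 than in replicate 1 (89.8%), while 51.1% of all genes were, with a median log2 difference of 0.16 against 0.0019. In Hdepl it was 40 of 49 (81.6%, all genes 56.7%), with a median of 0.10, and between the untreated libraries 30 of 49 (61.2%, all genes 63.7%), with 0.028. Members over 0.2 higher in replicate 2 numbered 21 in Wdepl (42.9%, all genes 11.3%), 14 in Hdepl (28.6%, all genes 13.5%) and 3 in untreated (6.12%, all genes 12.8%). The median log2 fold change in Wdepl was 1.05 without replicate 1 and 0.81 without replicate 2, and that in Hdepl 0.75 without replicate 1 and 0.54 without replicate 2. Of the further interferon-induced genes, 33 of which were compared, 21 were higher in replicate 2 in Wdepl and 29 in Hdepl (63.6% and 87.9%). Their median log2 differences were 0.022 and 0.074. Over 0.2 higher in replicate 2 were 0 of them in Wdepl (all genes 11.3%) and 3 in Hdepl (9.09%, all genes 13.5%). What separates the replicates was not tested. In the direct comparison, 15 members were higher after histidine depletion without Wdepl replicate 1, against 21 with all libraries.

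**Figure D4:**
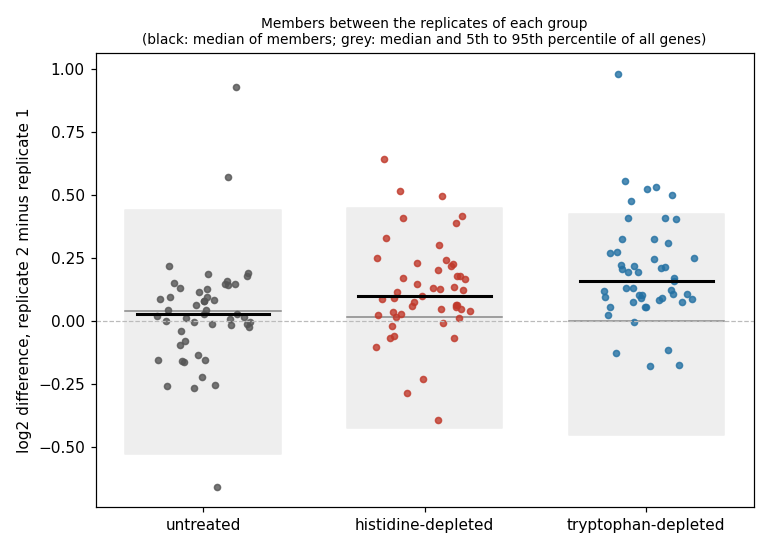
Log2 difference between replicate 2 and replicate 1 of each group for the 49 tested members (points, jittered sideways), with the median of the members in black and the median and 5th to 95th percentile of all tested genes in grey. The black line lies at 0.028 in untreated, 0.10 in Hdepl and 0.16 in Wdepl, and the grey median at 0.043, 0.016 and 0.0019.

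The interferons themselves were at or near the limit of detection. Of 21 interferon genes, 12 had no read in any library, namely IFNG and 11 IFNA genes, which at this depth allows up to 3 reads per library. IFNB1 had 0 and 0 reads in untreated, 1 and 3 in Hdepl and 2 and 1 in Wdepl libraries. IFNL1 had 2 and 9, 2 and 4, and 2 and 7. The 20 interferon genes other than IFNE summed to 7 and 14 reads in untreated, 13 and 12 in Hdepl and 12 and 16 in Wdepl libraries, and no difference was detectable at this depth. IFNE, an interferon of epithelia, had 121 and 128 normalized counts in untreated, 66.9 and 62.1 in Hdepl and 146 and 148 in Wdepl libraries, and fell by 0.93 in Hdepl (adjusted p = 2.7e-05).

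The counts of the pathway lists that follow stand beside 39.1% of all tested genes called higher and 38.2% lower in Hdepl, and 36.1% and 34.8% in Wdepl, and no list was tested against these shares. Of the receptors and kinases, 8 of 9 were tested, and 3 were higher and 2 lower in Hdepl, 4 higher and 3 lower in Wdepl, near those shares. IFNAR1, a chain of the type I receptor, rose in Hdepl (0.75, against 0.04 with adjusted p = 0.55 in Wdepl), with a direct difference of 0.69 (adjusted p = 3.1e-10). IFNAR2 had 9.95 to 28.8 normalized counts per library and was called only in Wdepl (0.93, adjusted p = 0.019). A readthrough gene on the same strand shares 14.7% of the exonic bases of IFNAR2. IFNLR1, the receptor of type III interferon, was higher in Hdepl (0.39) and lower in Wdepl (-0.73). JAK2 rose in Wdepl (1.43, adjusted p = 1.0e-37), as did JAK1 (0.71), with 0.17 and 0.02 in Hdepl and no call there, and the direct differences were -1.28 and -0.70.

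In the direct comparison, 5 of the 9 transcription factors were higher after histidine than after tryptophan depletion and 4 lower (all genes 38.7% and 38.0%). Of the 8 receptors and kinases tested, 2 were higher and 2 lower. STAT2 and IRF9, which act together at the ISRE, stood higher after tryptophan depletion. STAT2 had 2126 and 1889 normalized counts in untreated, 2570 and 2445 in Hdepl and 3570 and 3756 in Wdepl libraries. Its groups did not overlap, with log2 fold changes of 0.33 and 0.86. IRF9 rose by 1.04 in Wdepl, with 0.06 in Hdepl (adjusted p = 0.80). The direct differences of STAT2 and IRF9 were -0.55 and -1.0 (adjusted p = 6.9e-08 and 0.00014). Of the exonic bases of IRF9, 23.9% are shared with another gene on its strand.

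IRF1, IRF2 and STAT3 stood higher after histidine depletion. IRF1, which can drive interferon-stimulated genes on its own, had 1318 and 1413 normalized counts in untreated, 5059 and 5082 in Hdepl and 1898 and 1885 in Wdepl libraries (log2 fold changes 1.90 and 0.46, difference 1.42, adjusted p = 1.8e-14). Of the exonic bases of IRF1, 22.9% are shared with genes on the opposite strand. IRF2 changed by 1.70 and 0.31, STAT3 by 1.40 and 0.21, and IRF7, the amplifier of interferon transcription, by 1.86 and 1.26. IRF5 fell in Hdepl (-1.23) and rose in Wdepl (0.66). In all, 6 of 9 factors were higher and 1 lower in Hdepl, and 8 were higher and none lower in Wdepl.

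Upstream, 10 of 11 sensing genes were tested. In Hdepl 7 were higher and 2 lower, with TICAM1, the adaptor of TLR3, at 1.90, the DNA sensor CGAS at 1.55 and MAVS, the adaptor of RIG-I and MDA5, at -1.06. In Wdepl 4 were higher and 3 lower, with RIGI at 1.05, and the cGAS adaptor STING1 and the kinase IKBKE both at -1.32. RIGI had 757 and 735 normalized counts in untreated, 1175 and 1279 in Hdepl and 1432 and 1695 in Wdepl libraries. Of its exonic bases, 43.2% are shared with another gene on its strand. ZBP1, a sensor of Z-form nucleic acid, was under the filter, with 1 and 1 reads in untreated, 15 and 12 in Hdepl and 6 and 13 in Wdepl libraries. Its ratio to untreated cells was 11 in Hdepl (95% interval of counting error 2.75 to 95.1) and 8.52 in Wdepl (2.06 to 75.4).

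Among inhibitors of the pathway, 4 of 6 tested were higher in Hdepl and 4 of 5 in Wdepl, with 1 lower in each, ADAR in Hdepl (-0.45) and PTPN2 in Wdepl (-0.18). SOCS3, which blocks JAK kinases, had 43.7 and 62.7 normalized counts in untreated, 501 and 480 in Hdepl and 110 and 111 in Wdepl libraries (log2 fold changes 3.21 and 1.05, adjusted p = 1.4e-15 and 5.1e-07).

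**Figure D5:**
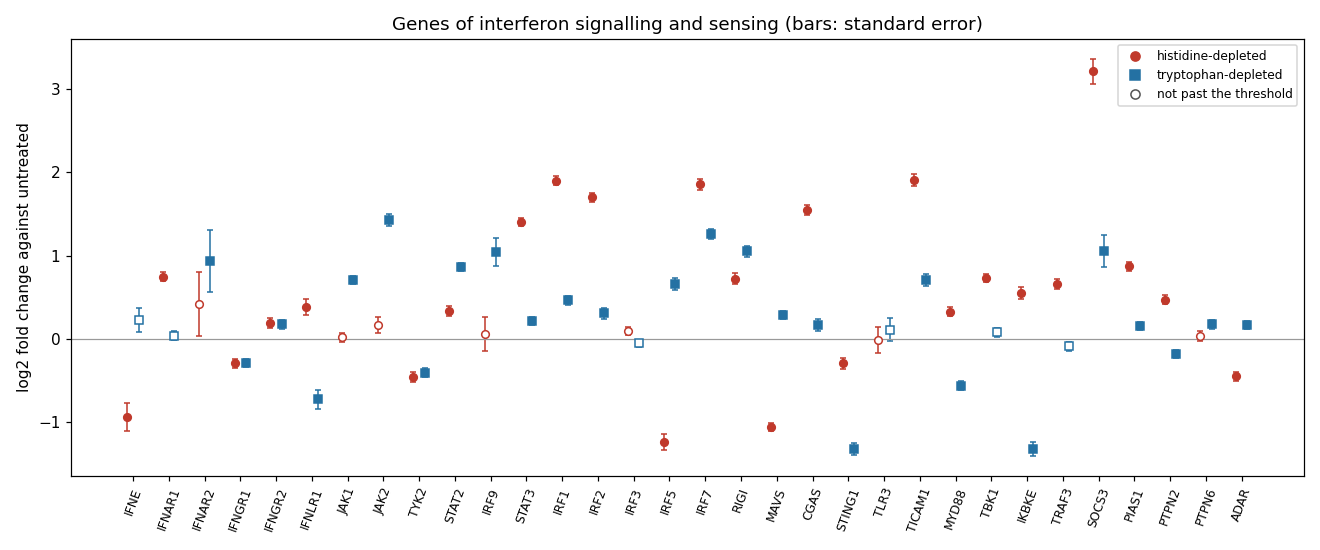
Log2 fold changes of 32 genes of interferon signalling and nucleic acid sensing against untreated cells, with standard errors, red circles for Hdepl and blue squares for Wdepl. Filled symbols passed the limma threshold. IRF1, IRF2, STAT3, TICAM1, CGAS and SOCS3 are higher in Hdepl, and JAK2, STAT2 and IRF9 in Wdepl.

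Of 10 genes listed as responsive to interferon-gamma, though not to it alone, 7 were tested. In Hdepl 1 was higher (ICAM1, 2.54) and 1 lower (WARS1, -0.62). Of the exonic bases of ICAM1, 25.4% are shared with genes on the opposite strand. In Wdepl 2 were higher (ICAM1, 1.25, and WARS1, 1.58) and 3 lower. The last were CD74, the invariant chain of class II antigen presentation (-2.44), the chemokine CXCL11 (-1.99) and GBP4 (-0.77). WARS1, the cytosolic tryptophanyl-tRNA synthetase, had 10067 and 11056 normalized counts in untreated, 6585 and 7089 in Hdepl and 31361 and 32051 in Wdepl libraries. IDO1, the tryptophan-degrading enzyme that interferon-gamma induces, had no reads in any library, which allows up to 3.

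A list of 36 further interferon-induced genes, not among the members, was examined beside them, and its difference from the members was not tested. Of 33 tested in Hdepl, 16 were higher (48.5%, all genes 39.1%) and 11 lower (33.3%, all genes 38.2%), with a median of 0.18. Of 32 in Wdepl, 19 were higher (59.4%, all genes 36.1%) and 7 lower (21.9%, all genes 34.8%), with a median of 0.27. The largest changes in Hdepl were IFI16 (3.56), a DNA sensor with 7 and 1 reads in untreated and 50 in each Hdepl library, LY6E (-2.15) and SLFN5 (2.12). In Wdepl they were SLFN5 (3.41), GMPR (-2.50) and RBCK1, a subunit of the linear ubiquitin ligase (2.03).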

How the data were processed

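RNA of HT29 cells (2 libraries per condition) was aligned by the authors with STAR 2.7.10a to GRCh38, counted on exons with HTSeq 2.0.5 and an earlier release of gencode and normalized with DESeq2. The paper describes counting on protein-coding genes, while the deposited values cover 60676 genes of all types. This difference was not resolved. The use of molecular identifiers and strand in counting is not given in the sources used here. Deposited values are counts divided by size factors, a normalized signal, in a table per depletion. All values (100%) were whole multiples, within 0.01, of a step per library, which gave 46390819 to 64388876 reads. Tests used limma 3.58.1 (trend) in R 4.3.3 on log2(normalized count + 1) where a gene averaged 10 or more normalized counts, with Benjamini-Hochberg adjustment over all genes. Fold changes on this scale understate the change of low genes. Members with the largest and smallest called change per role group and comparison, at a mean of at least 100, were given by library. Members and lists were chosen with earlier results of these data known. The alternatives were no filter, a mean of 50, pseudocounts of 0.5 and 8, no trend, quantile normalization, edgeR 4.0.16 and DESeq2 1.42.0 on reads, a replicate block, all 6 or only the 4 depleted libraries, a fold limit and each library left out. Some listed genes are not reported here. Intervals of read ratios cover counting error only. The code was tested on simulated data. Tables were handled in Python 3.11.15 with pandas 2.3.3.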

Additional observations from a re-analysis of the deposited data

Results flagged for a closer look

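In the direct test between the depletions, 21 members were higher after histidine and 20 after tryptophan depletion, 42.9% and 40.8%, close to the 38.7% and 38.0% of all genes. Members called in opposite directions against untreated cells were DHX58 (log2 difference of histidine against tryptophan depletion -1.49), IFI44 (-1.30), OAS3 (1.08) and TRIM25 (-1.01), of which the weaker arm of IFI44, OAS3 and TRIM25 was lost on leaving out 1 library. GBP1 (3.49) and RSAD2 (2.50) had the largest direct differences of all members and were raised in both depletions. What underlies these differences was not tested.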

How the results depend on the processing

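More members were higher than lower in both depletions under every alternative: 30 to 37 were higher in Hdepl and 33 to 40 in Wdepl, 5 to 7 and 5 to 8 lower, and 15 to 21 higher against 19 to 22 lower between the depletions. With a limit of 2-fold these counts were 20 and 2, 22 and 3, and 6 and 6. Of all values per member and setting, 2047 kept their call, 66 lost it, 26 gained one and 1 lost its call with a change of sign, DTX3L in Hdepl under quantile normalization (-0.013, adjusted p = 0.76 in limma). Quantile normalization added calls for DDX60, GBP2, HERC6, LAP3 and OASL in Hdepl and for HERC6 and IFIT3 in Wdepl. It moved the median log2 fold change to 0.75 in Hdepl, 1.02 in Wdepl and -0.13 between them. The last was -0.14 with no filter and -0.052 with a mean of at least 50. Leaving out each library in turn gave medians of 0.54 to 0.75, 0.81 to 1.05 and -0.33 to -0.081. The cause was not tested. Without members that share over 10% of their exonic bases with another gene, an alternative added after seeing the data, 30 were higher and 6 lower in Hdepl, and 34 and 6 in Wdepl.

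Over all genes, replicate numbers did not pair the libraries: deviations of same-numbered libraries correlated at 0.042, 0.002 and -0.041. Most members, however, were higher in replicate 2 in both depletions (40 of 49 in Hdepl, 44 of 49 in Wdepl). Whether this reflects a pairing was not tested. With a replicate block, 36 members were higher and 7 lower in Hdepl, 38 and 7 in Wdepl, and 21 and 20 between them. With 2 libraries per group, members under about 50 normalized counts (IFITM1, XAF1, SAMD9L, TRIM22, RTP4) are limited by depth.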

Other observations

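Of all genes tested in both depletions, 18.0% had opposite calls. Among the 32 further interferon-induced genes tested in both there were 6 (18.8%), with TRIM26 higher in Hdepl and lower in Wdepl, and APOL1, EIF2AK2, RBCK1, SHFL and TNFSF10 the reverse. EIF2AK2, which encodes the RNA-activated kinase PKR that halts translation, had 5535 and 5524 normalized counts in untreated, 3760 and 3989 in Hdepl and 7330 and 7834 in Wdepl libraries, so that its groups did not overlap (log2 fold changes -0.50 and 0.45, difference -0.97, limma adjusted p = 1.4e-12). In the pathway lists 8 of 40 genes had opposite calls, with IFNLR1, IKBKE, MYD88 and PTPN2 higher in Hdepl and ADAR, IRF5, MAVS and WARS1 higher in Wdepl.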
